A study of Mus musculus with 6 samples.

Results

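The spots described here are those with the highest combined level of Lypd1, Lmo3, Kcng1 and Cyp26b1 in coronal sections of the mouse brain, a group with the working label piriform and amygdalar cortex. The score of a spot was the mean over these 4 genes of its CPM (a gene's count scaled to a fixed total per spot) divided by the mean of its section, and the top 6% of the spots of each section with at least 500 UMIs (unique molecular identifiers, 1 per captured probe pair) were taken. They number 1221 of 20336 spots. P21 sections gave 216 and 199 of them, adult sections 175 and 196, and aged sections 221 and 214.

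Whole-transcriptome RNA was measured in formalin-fixed, paraffin-embedded coronal sections of untreated male C57BL/6J mice by Visium, in which probe pairs hybridized to the RNA are captured on a slide of barcoded spots. Each spot covers several cells. P21 mice (postnatal day 21) were bred in house, adults (12 to 15 weeks by their labels) came from a commercial breeder, and aged mice (28 months) came from a national aging colony. Each age has 2 sections, labelled biological replicates, and all mice carry the same wild-type genotype. Aged sections were transferred through CytAssist onto a later slide version and counted with Space Ranger 3.1.1. P21 and adult sections were placed on the slides directly and counted with 2.0.0. The paper also describes an enhanced design of the probes for the later version, meant to raise sensitivity. In aged vs. adult an effect of age and one of the slide version or its probes cannot be told apart. The labels give a different origin of the mice for each age, while the methods name 1 supplier for all, and as the labels have it origin and age cannot be told apart in either comparison. The aged sections shared 0 spot barcodes with the others, any pair of P21 or adult sections shared 2612 to 2997, and the aged pair shared 3364. A barcode is an array position of a slide version, not a cell.

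The amygdala and the piriform cortex lie in the ventrolateral forebrain. The basolateral amygdala holds cortex-like excitatory neurons that are known for learned fear and reward, and the piriform cortex is the main cortical target of the olfactory bulb. Of the genes that chose the spots, Cyp26b1 encodes an enzyme that degrades retinoic acid, Kcng1 a silent subunit that changes the gating of Kv2 potassium channels, Lmo3 a LIM-only transcriptional cofactor, and Lypd1 a membrane-anchored Ly6 protein that modulates nicotinic acetylcholine receptors. On GRCm38 the files' genes lie, by GENCODE vM21, at chr6:84571414-84593908 (Cyp26b1), chr2:168260117-168281736 (Kcng1), chr6:138362918-138581968 (Lmo3) and chr1:125867622-125913101 (Lypd1), each on the minus strand.

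The score that chose the spots was 2.57 in the lowest chosen and in the highest remaining spot of P21 section 1. In the other sections the lowest chosen spot scored 3.14, 3.21, 3.19, 3.90 and 3.65 and the highest remaining spot 3.13, 3.198, 3.18, 3.89 and 3.65, so no gap separated the chosen spots from the rest. A UMI of each of the 4 genes was found in 60.6% and 48.7% of the chosen P21 spots, 43.4% and 51.0% of the adult and 81.0% and 72.0% of the aged, against 1.42% to 8.07% of the remaining spots. Median depth per chosen spot was 16675, 11345, 14408, 12905, 23528 and 33372.5 UMIs, and per remaining spot 24187.5, 12145, 16983, 14685, 18997.5 and 24685. The aged chosen spots were deeper than the rest of their sections and the P21 and adult chosen spots were shallower. Summed over the chosen spots the sections held 3817102, 2264079, 2670560, 2689090, 5531868 and 7248786 UMIs.

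Most of the chosen spots of each section lay in 1 ventrolateral block, whose place on axes estimated from expression differed between the ages. Dorsal to ventral was drawn in each section from its dentate gyrus spots to its thalamic spots. The lateral side was the one toward its striatal spots, and places are ranks among the spots of the section. The largest patch of touching spots held 127 spots in each P21 section, 89 and 141 in the adults, and 197 and 181 in the aged sections. These patches made up 58.8% and 63.8% of the chosen spots of the P21 sections, 50.9% and 71.9% of the adult and 89.1% and 84.6% of the aged. On a scale from 0 (medial) to 100 (lateral) the median spot of the patch lay at 83.0 and 79.9 in P21 sections, 68.5 and 63.2 in adult and 63.8 and 65.0 in aged sections. From dorsal to ventral it lay at 71.4 and 78.7, at 85.5 and 82.3 and at 86.5 and 87.3. On these axes the P21 patches thus lay more laterally and more dorsally than those of the other ages. Whether the estimated axes were turned between sections was not tested. In P21 section 1 the second patch, of 16 spots, lay at the lateral edge, and in adult section 1 the second, of 13 spots, lay near the dentate gyrus. The chosen spots lay at a median depth of 5.29 and 4.58 spot distances from the tissue edge at P21, 6.08 and 9.54 for adults and 8.54 for both aged sections. The remaining spots of the same sections lay at 6.25, 4, 5.57, 4.36, 7 and 6.08. Chosen spots thus lay farther from such an edge than the rest in every section except P21 section 1. An edge here is any kept spot that lacks a neighbouring spot, so gaps inside the tissue and the array border count as well. Layer 2 of the piriform cortex lies close to the pial surface, and the distance from that surface was not measured.

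**Figure D1:**
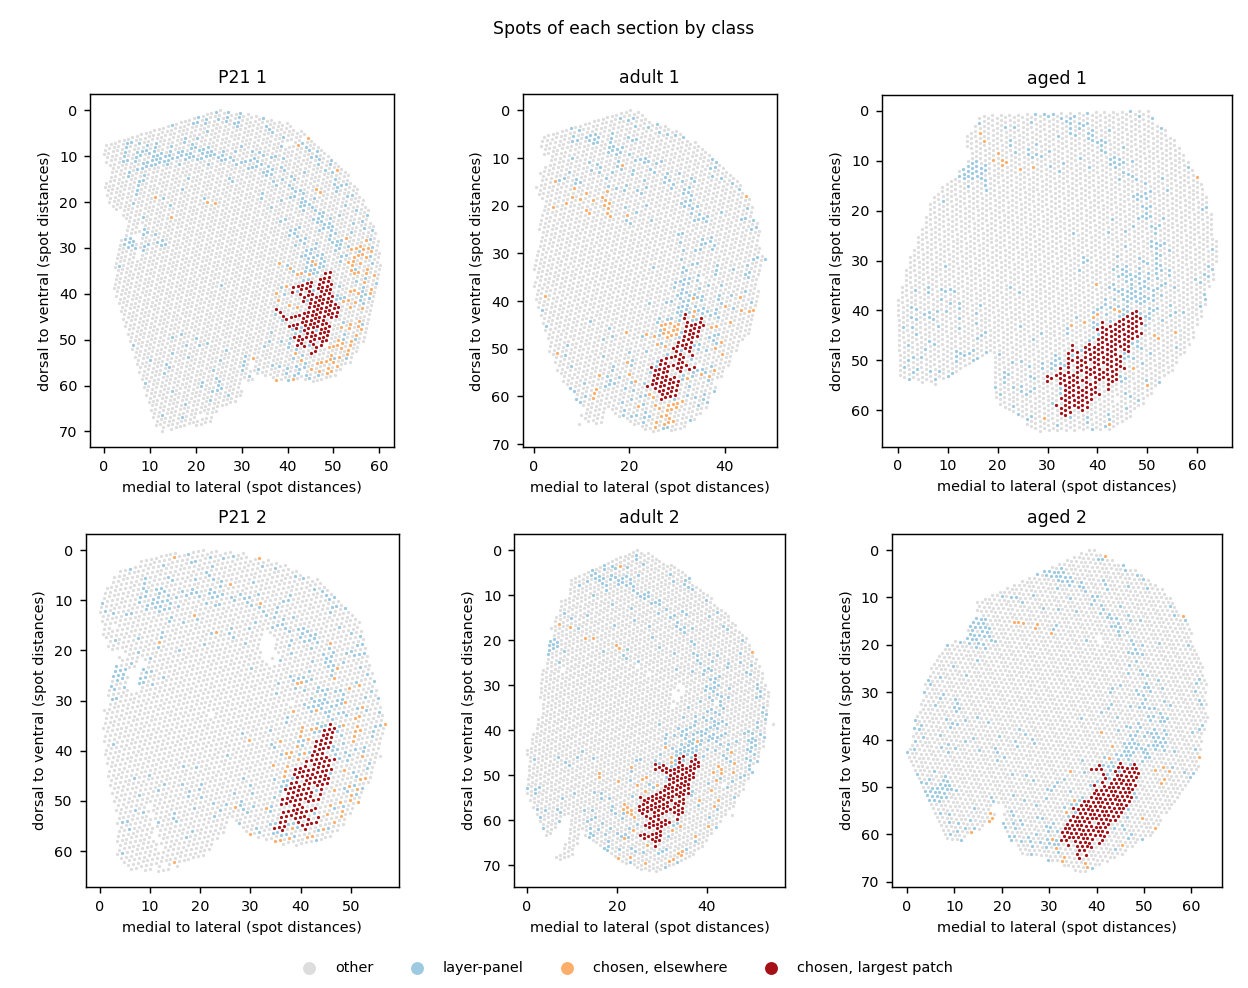
Positions of all spots of the 6 sections, with the mediolateral and dorsoventral axes, estimated from expression, in spot distances. The largest patch of chosen spots (127, 127, 89, 141, 197 and 181 spots) lies ventrolaterally inside the tissue in each section, and the other chosen spots are scattered along the lateral edge and elsewhere.

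The label was borne out in part. Because these spots were chosen by expression, the following ratios against the remaining spots are a description with no test, given as log2 ratios of CPM plus 1. Slc17a7, the vesicular glutamate transporter of cortical and amygdalar excitatory neurons, was higher in all 6 sections (log2 ratio 0.41 to 0.95). Of the 6 telencephalic excitatory genes listed with it, itself included, 2 were higher and 1 was lower in all 6 sections. Of the 5 basolateral amygdala genes in the files, Rspo2, which encodes a Wnt agonist, was higher by 1.21 to 1.83 and Slc30a3, a synaptic zinc transporter, by 0.97 to 1.42, while Rorb was lower. The sum of these 5 genes was higher in the chosen than in the remaining spots in every section except aged section 2 (545 against 565 CPM). In all 6 sections it was lower in the ventrolateral patch than in the scattered chosen spots, for example 614 against 1023 CPM in P21 section 2. Slc30a3 was the most abundant of the 5 and Rspo2 measured 22.5 to 50.6 CPM, so the sum says little about Rspo2. Of the 6 genes listed for piriform layer 2, Fezf2 and Bcl11b were higher in all sections, Cux1 and Trh were lower in all, Trh with 10.48 against 10.49 CPM in aged section 2, and Reln and Nectin3 differed in sign between sections. Of the 11 genes listed for the medial and central amygdala only Esr1 and Wfs1 were higher in all sections, and Prkcd, a marker of the central amygdala and thalamus, was lower by −3.69 to −1.56. The spots are therefore called the chosen spots here.

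Genes were ranked by the lowest of their 6 ratios. Apart from the 4 genes that chose the spots, the first by this rank was Rxrg, a retinoid X receptor, with 57.1 and 62.7 CPM at P21, 52.8 and 84.0 in adult sections, and 79.7 and 75.2 in the aged against 13.6 to 17.3 in the remaining spots. Its log2 ratio was 1.71 to 2.24. Rxrg was the only one of the 19 listed retinoic acid genes over a log2 ratio of 1 in every section. Of these 19 genes, 2 were higher and 5 were lower in all 6 sections, and their sum was lower than in the remaining spots in every section. Crabp1, which binds retinoic acid in the cytoplasm, was higher in all 6 by 0.36 to 1.09, while the retinal dehydrogenase gene Aldh1a1 was lower in all 6 by −2.43 to −0.64. Kcng3, which encodes another silent Kv2 subunit, was higher by 1.14 to 1.90. Of the 10 LIM-only and LIM homeodomain genes measured, 4 were higher and 3 were lower in all 6 sections. Among the higher ones were Ldb2 (0.82 to 1.53) and Lmo4 (0.47 to 0.95).

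C1ql3, a secreted synaptic organizer, measured 274, 298, 288, 428, 428 and 522 CPM in the P21, adult and aged chosen spots and 83.3 to 115 CPM elsewhere. Grp, the gastrin-releasing peptide, measured 40.1 and 56.5 CPM at P21, 85.4 and 76.2 in adult sections, and 97.6 and 73.2 in the aged, and its log2 ratio over the remaining spots ran from 1.14 in P21 section 1 to 3.53 in aged section 1, with a median (2.57) above that of Rxrg (1.97). The others among the 15 with the highest lowest ratios were Ccn3, Ankfn1, Hpcal1, Cdh9, Syn2, Cpne6, Syt17, Nptxr, Nkain3 and Bmp3. Of 7330 genes at 20 CPM or more in the chosen spots of all sections, the 4 score genes left out, 14 were over 2-fold higher than in the remaining spots in all 6 and 10 were over 2-fold lower. Of the 20 listed glutamate receptor subunits 10 were higher and 5 were lower in all 6. Among the higher ones were Gria1 and Gria3 of the AMPA receptor and the metabotropic Grm5.

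Lists of other tissues differed in how they compared with the remaining spots. All 13 mature oligodendrocyte genes, all 6 choroid plexus genes and all 4 thalamic genes were lower than in the remaining spots in all 6 sections, as were 7 of 9 astrocyte genes. Ttr, which encodes transthyretin and is the most abundant choroid plexus gene, measured 621 and 373 CPM at P21, 386 and 153 in adult sections, and 77.9 and 35.3 in the aged. It was thus present in every section and lowest in the aged. Of the 8 meningeal genes none was lower in all 6, and their sum in adult section 1 was 219 CPM in the chosen against 105 CPM in the remaining spots. The sum of 6 striatal genes was higher in the chosen spots in P21 section 2 and in both adult sections (262 against 218 CPM in adult section 2), and that of 3 dentate gyrus genes in adult section 1 was close to the rest, at 159.9 against 162 CPM.

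**Figure D2:**
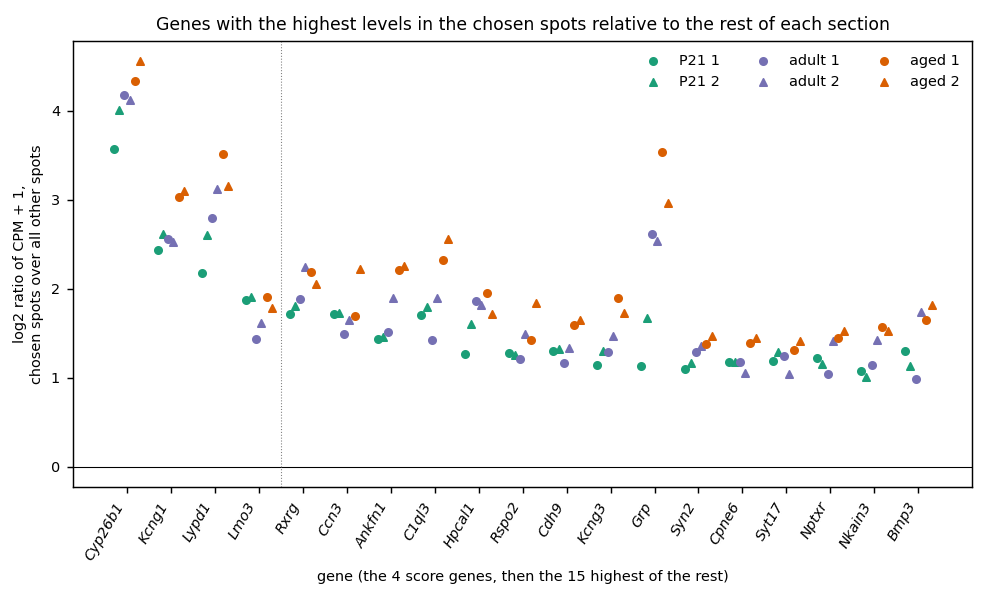
Log2 ratio of CPM plus 1 in the chosen over all remaining spots, 1 point per section, for the 4 genes that chose the spots (left of the dotted line) and the 15 highest others. Rxrg sits between 1.71 and 2.24, and Grp spreads from 1.14 to 3.53.

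The chosen spots were not uniform. Spots of the largest patch held more Grp than the scattered chosen spots in every section, with 64.3 and 77.4 CPM against 11.4 and 17.7 at P21, 159 and 97.8 against 14.0 and 16.8 in adults, and 109 and 84.5 against 3.46 and 3.96 in aged sections. Lypd1, C1ql3, Rxrg and the nuclear receptor gene Nr2f2 were also higher inside the patch in all 6. The Rxrg level, for example, was 80.7 to 100 CPM inside and 13.9 to 39.2 outside. Outside it Reln, which encodes the secreted protein reelin, was higher (78.8 to 140 CPM against 24.0 to 67.9), and so were the transcription factor genes Bcl11a and Trps1. Cyp26b1, by contrast, reached 85.9 to 140 CPM in the scattered spots and 116 to 190 in the patch, with the order turned in aged section 1. These differences are a description, since the patch was drawn on the same expression.

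In P21 vs. adult the chosen spots held more myelin RNA, more RNA of immature neurons and more haemoglobin RNA, and the sums of these lists were also higher at P21 in the spots outside them. Mag, a glycoprotein of the inner myelin membrane, measured 541 and 471 CPM at P21 and 162 and 150 CPM in adults. The 2 P21 sections stood above both adult sections, a log2 fold change of 1.70 ± 0.11 (SE, edgeR quasi-likelihood, adjusted p = 7.77e-10). Fold changes are from the UMIs summed per section, with sections as replicates (n = 2 per age), TMM-scaled CPM, and a gene was called if its adjusted p was below 0.05 and its fold above 1.5. Because there are 2 sections per age, p-values measure the spread between these sections. In bulk sums such as these, fewer cells of a type and less RNA per cell cannot be told apart.

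Of 10770 genes tested, 228 (2.12%) were called higher and 101 (0.938%) lower at P21. Against that background, 10 of the 13 mature oligodendrocyte genes were called higher and none lower, with a median log2 fold change of 1.42 beside 0.00 for all genes tested. Mog, a glycoprotein of the outer myelin surface, measured 258 and 192 CPM at P21 and 71.6 and 62.6 CPM in adults (1.76 ± 0.14, adjusted p = 1.49e-08, edgeR). Of the newly formed oligodendrocyte genes 4 of 8 were higher, led by Enpp6 with 33.9 and 28.1 CPM against 9.50 and 5.96 (2.02 ± 0.27, adjusted p = 6.72e-05, edgeR) and Gpr17, a receptor of cells that begin to myelinate. The call of Rras2, another of the 4, was lost without P21 section 1 (0.552), P21 section 2 (0.734) or adult section 2 (0.485). It was also lost within the largest patch (0.639). Of the 7 precursor genes, Sox10 (61.0 and 51.3 CPM against 20.1 and 16.02) and Olig1 were called. The summed level of the 13 mature genes in the chosen spots was 14490 and 12830 CPM at P21 and 5681 and 4446 CPM in adults, with Mbp the most abundant, and in the other spots 28980 and 29950 against 15240 and 14980 CPM. P21 sections were thus higher than adult sections in both classes of spots.

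Genes of immature neurons moved the same way, with 7 of the 14 tested called higher and none lower (median 0.70). Marcksl1, a substrate of protein kinase C at growing membranes, measured 350 and 293 CPM at P21 and 128 and 108 CPM in adults (1.46 ± 0.12, adjusted p = 4.09e-08, edgeR). Dpysl5, which acts in growth cones, measured 84.5 and 79.0 CPM against 34.3 and 44.0 CPM (1.07 ± 0.14, adjusted p = 5.8e-05, edgeR). Both P21 sections lay above both adult sections for each. The others called were Cd24a, Sox4, Dpysl3, Tubb2b and Nrep. Sox4 was no longer called without P21 section 1 (log2 fold change 0.56) or without adult section 2 (1.08), and Cd24a without P21 section 1 (1.55). The 17 listed genes summed to 2155 and 2008 CPM at P21 and 1336 and 1346 CPM in adults in the chosen spots, and to 2014 and 2007 against 1330 and 1349 CPM in the other spots, and in both classes the P21 sections lay above the adult ones.

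Of 12 cholesterol synthesis genes 5 were called higher, with a median of 0.49, and the calls of Mvd (0.77) and Dhcr7 (0.65) were lost without P21 section 1. Cyp51, a sterol demethylase, measured 103 and 100 CPM at P21 and 57.7 and 60.7 CPM in adults (0.78 ± 0.12, adjusted p = 0.000395, edgeR). Gsn and Ugt8a, an actin-severing protein and the enzyme that starts galactolipid synthesis for myelin, had log2 fold changes of 2.31 ± 0.14 and 2.11 ± 0.14.

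All 4 erythrocyte genes tested were higher. Hbb-bs, an adult beta globin, measured 1132 and 607 CPM at P21 and 131 and 92.1 CPM in adults (2.97 ± 0.23, adjusted p = 1.56e-08, edgeR). The list sums to 1736 and 866 CPM in the chosen P21 spots and 2339 and 1339 CPM in the other P21 spots, which hold more than the chosen ones. Pmch, a hypothalamic peptide, measured 253 and 118 CPM at P21 and 5.12 and 52.2 CPM in adults, and 766 and 549 CPM in the other P21 spots, and its call was lost without P21 section 1. The part that blood or neighbouring hypothalamus had in other changes was not tested.

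Lynx1 and Chrna4 were called on the list of Ly6 proteins and nicotinic receptors. Lynx1, a Ly6 protein of the same family as Lypd1 that restrains nicotinic receptors, measured 414 and 407 CPM at P21, 271 and 276 in adult sections, and 150 and 171 in the aged. It rose in P21 vs. adult by 0.59 ± 0.10 (adjusted p = 0.000918) and fell in aged vs. adult by 0.77 ± 0.10 (adjusted p = 9.14e-06, both edgeR). Its ages did not overlap, and the P21 call, just above the fold asked for, was lost without P21 section 1, adult section 1 or aged section 1 (0.57, 0.57 and 0.58). Chrna4, the alpha4 nicotinic subunit, measured 47.6 and 44.6 CPM at P21, 25.9 and 22.7 in adults (0.93 ± 0.17, adjusted p = 0.0018, edgeR). They were the 2 calls among the 13 genes tested there at P21, and the Chrna4 call was lost without P21 section 1 (0.87).

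Of the medial and central amygdala list 3 of 9 were higher, namely the imprinted gene Dlk1 (30.8 and 27.2 CPM against 11.0 and 10.4) and the tachykinin genes Tac1 and Tac2. Both tachykinin calls were lost without adult section 1 (0.68 for Tac1 and 0.44 for Tac2), the Tac1 call also without P21 section 2 and the Tac2 call without P21 section 1. Calb2, the calcium buffer calretinin, measured 116 and 150 CPM at P21 and 62.1 and 54.0 CPM in adults (1.18 ± 0.15, adjusted p = 2.45e-05, edgeR). Gnb4, a G protein subunit on the claustrum list, measured 91.3 and 85.7 CPM against 44.2 and 53.3 CPM.

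Fewer genes were lower at P21. Il33, a nuclear cytokine made by glia, measured 13.4 and 16.1 CPM at P21, 62.8 and 46.6 in adult sections, and 28.2 and 34.5 in the aged (−1.92 ± 0.20, adjusted p = 2.18e-06, edgeR). Hapln4, a link protein of perineuronal nets, measured 85.0 and 82.1 CPM at P21 and 128 and 177 in adults (−0.86 ± 0.13, adjusted p = 0.000303, edgeR), and was the only one of 8 net genes called. The other large falls were Gstt1, Glt8d2, Prr16, Igfn1, Ankib1, Ccdc148 and Pcdhga9, of which Glt8d2, Prr16 and Igfn1 were each lost without at least 1 P21 section. Grp fell by 0.75 ± 0.17 (adjusted p = 0.00941), and Rxrg and Kcng3 were not called. None of 20 glutamate receptor, 12 GABA-A receptor, 12 retinoic acid or 8 Kv2 genes tested was called in P21 vs. adult.

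**Figure D3:**
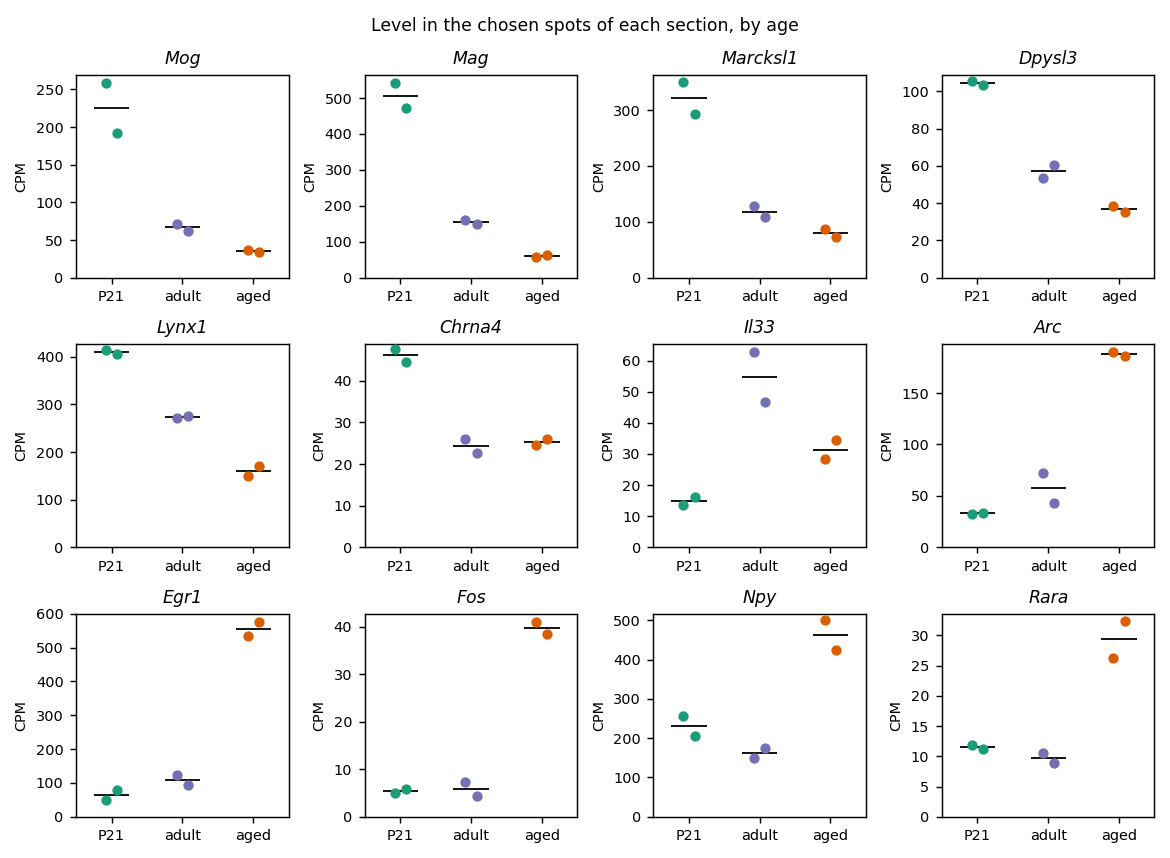
TMM-scaled CPM of 12 genes in the chosen spots, 1 point per section, with a line at the mean of each age and axes that start at 0. Mag is highest in the P21 sections (541 and 471 CPM) and Egr1 in the aged sections (534 and 574 CPM).

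Aged vs. adult gave the larger count, with the slide version and its probes, the depth and the make-up of the chosen spots changing at the same step. The aged sums held 5531868 and 7248786 UMIs and the adult sums 2670560 and 2689090. With sums thinned to the lowest section 1211 genes were called, of which 1010 were among the 1359 called without thinning. The patch held 50.9% and 71.9% of the adult and 89.1% and 84.6% of the aged chosen spots. Within the patch alone 1258 genes were called in place of 1359, of which 1006 were the same. The calls lost there included those of Crh (1.04), Dpysl3 (−0.52), Slc6a11 (−0.51), Vim (−0.49), Igf2 (−0.78), C1ql2 (−0.44) and Prox1 (−0.43), and in P21 vs. adult those of Tac1 (0.54) and Sstr2 (0.58). Of 11526 genes tested 801 (6.95%) were called higher and 558 (4.84%) lower. Immediate early genes, which are transcribed within minutes of neuronal activity or of other stimuli, rose together, with 10 of 11 higher (median 1.24, against −0.01 for all genes tested). Fos, the founding member, measured 7.31 and 4.47 CPM in adults and 41.0 and 38.5 CPM in aged sections (2.74 ± 0.24, adjusted p = 4.54e-08, edgeR). Egr1, a zinc finger factor of the same class, measured 122 and 95.03 CPM against 534 and 574 CPM (2.35 ± 0.14, adjusted p = 1.03e-10, edgeR). Fosb, Egr2 and Arc were called as well, and no aged section overlapped with an adult section for these genes. With the largest patch alone 9 of the 11 were called, and without adult section 1, 10 were. Heat shock genes were called higher in 4 of 7 cases (median 0.67), Hspa1a with 4.02 and 8.94 CPM in adults and 21.5 and 16.7 CPM in aged sections, and 3 of these 4 calls were lost without aged section 1, where Hspb1, Hspa1b and Hspa5 changed by 1.10, 0.62 and 0.43.

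Cyclic AMP response elements lie in the promoters of many activity-regulated genes. The 250 bases before the RefSeq start of 3 genes that rose in aged chosen spots are printed to show the sequence TGACGT (either strand), in capitals together with the rest of TGACGTCA where that longer motif is present. They lie on GRCm38.p6 at chr12:85473640-85473889 (Fos), chr10:5638968-5639217 (Vip) and chr11:113619077-113619326 (Sstr2), all on the plus strand.
Fos: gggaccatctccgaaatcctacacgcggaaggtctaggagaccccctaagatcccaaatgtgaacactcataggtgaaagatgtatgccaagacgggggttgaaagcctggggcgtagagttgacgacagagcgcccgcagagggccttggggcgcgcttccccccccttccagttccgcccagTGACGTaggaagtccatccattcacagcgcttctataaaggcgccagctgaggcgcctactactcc
Vip: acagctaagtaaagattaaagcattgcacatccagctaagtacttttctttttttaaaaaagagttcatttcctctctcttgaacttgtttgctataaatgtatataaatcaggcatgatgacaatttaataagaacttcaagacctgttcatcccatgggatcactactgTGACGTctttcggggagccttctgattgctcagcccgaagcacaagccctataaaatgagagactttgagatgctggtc
Sstr2: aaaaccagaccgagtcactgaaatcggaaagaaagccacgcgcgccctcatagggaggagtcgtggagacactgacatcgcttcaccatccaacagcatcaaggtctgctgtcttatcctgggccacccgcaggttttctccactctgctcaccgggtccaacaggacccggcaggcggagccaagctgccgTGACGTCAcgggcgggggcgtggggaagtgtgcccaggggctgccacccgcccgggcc
The capitals begin 66, 79 and 58 bases before the start. TGACGT is found in 2125 of 32851 such RefSeq windows (6.47%) and TGACGTCA in 508 (1.55%), and of the 11 immediate early genes listed, 9 had a window and 6 of these held TGACGT. The genes and the motif were chosen after their values were seen, and a match is not evidence of binding.

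Neuropeptides rose in 6 of 14 genes and fell in none (median 0.41). Npy, neuropeptide Y, measured 150 and 176 CPM in adults and 500 and 424 CPM in aged sections (1.5 ± 0.12, adjusted p = 1.65e-08, edgeR). Vip, the vasoactive intestinal peptide of a class of interneurons, measured 47.1 and 38.8 CPM against 96.2 and 118 CPM (1.32 ± 0.17, adjusted p = 4.47e-06, edgeR), and Crhbp, which binds corticotropin-releasing hormone, 31.1 and 43.6 CPM against 83.8 and 107 CPM (1.36 ± 0.16). Aged sections lay above adult sections in each case. The other calls were Trh, Crh and Pdyn, each at 15 CPM or less in every section, and the Crh call was lost without adult section 1 (0.80) or aged section 2 (0.94). Npy and Vip are also among the 11 inhibitory neuron genes, of which 4 were called higher and 3 lower (median 0.46) and whose sum went from 1844 and 1898 to 2575 and 2808 CPM. Gad1, the GABA-synthesizing enzyme of these neurons, measured 42.8 and 40.6 CPM in adults and 95.3 and 108 CPM in aged chosen spots, and 47.6 and 49.2 against 101 and 92.4 CPM in the other spots. The part of inhibitory neurons in the peptide changes was not tested.

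Receptors moved in both directions. Sstr2, a somatostatin receptor, measured 37.9 and 39.7 CPM at P21, 23.7 and 24.97 in adult sections, and 80.9 and 95.03 in the aged (1.85 ± 0.15, adjusted p = 1.65e-08, edgeR). Chrm1, the M1 muscarinic receptor, measured 51.9 and 52.5 CPM in adults and 129 and 103 CPM in aged sections (1.14 ± 0.13, adjusted p = 1.77e-06, edgeR). Conversely, the neuropeptide Y receptor gene Npy2r fell from 52.2 and 50.7 CPM to 24.8 and 26.8 CPM (−0.99 ± 0.14), and Crhr1, the receptor of corticotropin-releasing hormone, from 30.3 and 34.3 CPM to 19.5 in both aged sections (−0.73 ± 0.17). Gabrd, the extrasynaptic delta subunit, was the only GABA-A gene of 12 called, at 73.4 and 53.7 CPM against 24.96 and 25.1 CPM (−1.34 ± 0.15, adjusted p = 1.17e-06, edgeR). Of 20 glutamate receptor genes 3 were called, all lower, among them the kainate subunits Grik1 and Grik4, and the Grik4 call was lost without adult section 1 (−0.61).

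The retinoic acid list, which belongs to the enzyme that helped choose the spots, had 14 genes tested and 3 called. Rara, a retinoic acid receptor, measured 10.6 and 8.94 CPM in adults and 26.2 and 32.4 CPM in aged sections (1.59 ± 0.22, adjusted p = 1.91e-05, edgeR). Aldh1a1 fell by 0.98 ± 0.20 (adjusted p = 0.00107, edgeR), and its call did not hold without adult section 1 (−0.66). Rxrg had a log2 change of 0.20 ± 0.15 and was not called. None of the 10 Kv2 and silent subunit genes tested was called.

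Aged chosen spots held less myelin RNA. Of 13 mature oligodendrocyte genes 10 were lower and none higher (median −0.88), among them Mag with 162 and 150 CPM in adults and 58.1 and 63.0 CPM in aged sections (−1.36 ± 0.11, adjusted p = 3.13e-08, edgeR). Opalin, a late oligodendrocyte membrane protein, measured 69.1 and 60.7 CPM against 3.28 and 6.76 CPM. It was also low in the other aged spots, at 23.5 and 28.4 CPM beside 185 and 171 CPM in other adult spots, and Cntnap2, a cell adhesion protein of axons, was at 1.28 CPM or less in every class of aged spots (levels in TMM-scaled CPM). The low levels of Opalin and Cntnap2 were thus not limited to the chosen spots, and the part of the slide version and its probes was not tested. The summed level of the 13 genes was 2833 and 2856 CPM in aged chosen spots and 10940 and 10170 CPM in the other aged spots. The astrocyte genes Aqp4 and Gja1 and the glial GABA transporter gene Slc6a11 fell, Slc6a11 no longer without adult section 1 (−0.53), and Serpina3n and C4b of the reactive astrocyte list rose. Vim of the same list was called lower (−0.62 ± 0.20), a call lost when any section except adult section 2 was left out. C4b, a complement component, measured 30.7 and 12.3 CPM in adults and 57.0 and 49.8 CPM in aged sections (1.30 ± 0.27, adjusted p = 0.00105, edgeR).

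Genes best known from the hypothalamus and the meninges were among the largest falls. Pmch was at 5.12 and 52.2 CPM in adults and 0.91 and 0.14 CPM in aged sections, and the meningeal collagen gene Col1a2 at 36.5 and 10.1 CPM against 4.19 and 5.38 CPM. Cd74, the invariant chain of MHC class II, and the meningeal genes were highest in adult section 1. The 8 meningeal genes, all detected and led by Igf2, sum to 130, 97.3, 214, 35.0, 23.0 and 36.3 CPM in the P21, adult and aged chosen spots, and within the largest patch of adult section 1 to 59.5 CPM against 373 CPM in its scattered chosen spots. Their part in the other falls was not tested.

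**Figure D4:**
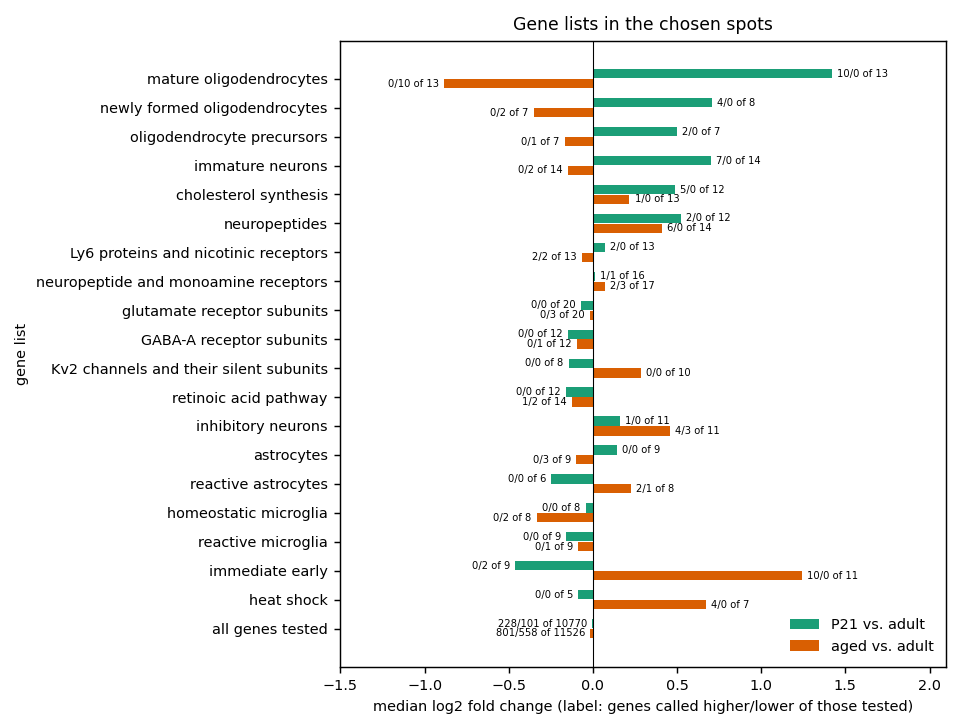
Median log2 fold change of the tested genes of each list in the chosen spots, for P21 vs. adult and aged vs. adult, with the genes called higher and lower at each bar. Mature oligodendrocyte genes are at 1.42 and −0.88, and immediate early genes at −0.46 and 1.24. The 2 comparisons share the adult sections.

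Some genes moved in both comparisons, which share the adult sections. Of 10727 genes tested in both, 88 were called in both (26.7% of the P21 calls and 6.48% of the aged calls). They split into 46 higher at P21 and lower in aged, 18 higher in both, 19 lower in both and 5 lower at P21 and higher in aged. Lynx1, Nrep and Dpysl3 belong to the first of these groups, though the aged call of Dpysl3 was lost without adult section 2 (−0.53) or aged section 2 (−0.57). Egr1 and Arc were called lower than adult at P21, with a log2 fold change of −0.81 each, and higher in aged. The P21 calls were lost without P21 section 1 for Egr1 (−0.48) and without adult section 1 for Arc (−0.40), and for Arc also without either P21 section.

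Whether an age change was larger or smaller here than elsewhere was tested within sections. For this, each section was split into the chosen spots, the layer-panel spots (the top 6% by a panel of upper-layer or of deep-layer neocortical genes, 2158 in all, chosen spots left out) and the other 16957 spots, and edgeR tested the term of class by age with the section as a block. A factor that shifts a gene equally in all 3 classes of a section drops out of this term. The layer-panel spots cannot be taken as neocortex at every age, since their make-up differed between the ages. Their summed level of 6 telencephalic excitatory genes was 3085 and 2564 CPM in P21 sections, 2618 and 2740 CPM in the adult ones and 1995 and 1753 CPM in the aged ones, where the other spots held 1988 and 1775 CPM. Their striatal sum was 498 and 456.5 CPM in adults and 624 and 466 CPM in aged sections, against 202 and 251 CPM in the other aged spots, and their sum of 5 intercalated cell genes went from 632 and 611 to 1104 and 629 CPM. Their median place on the estimated dorsoventral axis was 33.4 and 38.6 in P21 sections, 51.2 and 54.3 in the adult ones and 58.2 and 56.7 in the aged ones. They held 426 CPM of Pmch in aged section 1. The 5 basolateral amygdala genes summed to 836, 846 and 687.5 CPM there in adult section 1 and the aged sections, above the 749, 613 and 544 CPM of the chosen spots. In both P21 sections and adult section 2 the layer-panel sum was below that of the chosen spots. Slc30a3 was the most abundant of these genes in the chosen spots, and which of them raised the layer-panel sum was not examined. The part of this shift in the differences from the layer-panel spots was not tested.

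In P21 vs. adult, none of 10762 genes (0%) was called against the layer-panel spots by edgeR, while 670 had an unadjusted p under 0.05 and DESeq2 called 2. Against the other spots 4 genes (0.0372%) had a higher and 4 (0.0372%) a lower change in the chosen spots. Rcn1, a calcium-binding protein of the endoplasmic reticulum, measured 27.1 and 33.0 CPM at P21 and 49.0 and 57.4 in adult chosen spots, but 39.2 and 46.2 CPM and 29.6 and 37.1 CPM in the other spots. Its P21 levels were below the adult levels in the chosen spots and above them in the other spots, a difference of −1.17 ± 0.15 (adjusted p = 0.00835, edgeR), which was not called when either P21 section was left out. Man1a, a mannosidase of the Golgi, changed from 86.6 and 109 CPM in adults to 99.2 and 95.5 at P21 in the chosen spots and from 50.7 and 49.0 to 88.3 and 85.7 CPM in the other spots (−0.80 ± 0.14, adjusted p = 0.035, edgeR), a call lost without either P21 section (−0.80 in both cases) or without adult section 2 (−0.59).

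In aged vs. adult, 60 of 11521 genes (0.521%) changed upward and 90 (0.781%) downward relative to the layer-panel spots, and 29 (0.252%) upward and 53 (0.46%) downward relative to the other spots. With library totals in place of TMM factors 19.9% and 25.3% of the calls were upward, against 60 of 150 and 35.4% here. Without adult section 1 the counts were 8 and 9, of which 8 and 6 were among the 150 and 82, and without aged section 2 they were 37 and 51, of which 26 and 41 were. Within the largest patch they were 54 and 25, of which 46 and 24 were. The genes called against the layer-panel spots in every fit that left out 1 section were Baiap3, Cpne6, Rasgrp2 and Vip, and against the other spots Igfn1, Jun and Rasgrp2.

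Jun, a partner of Fos in the AP-1 factor, measured 86.2 and 84.2 CPM in adult and 173 and 133 CPM in aged chosen spots. In the layer-panel spots it measured 70.3 and 63.1 CPM in adults and 75.3 and 54.6 CPM in aged sections, and in the other spots 89.5 and 89.2 against 92.6 and 77.8 CPM. Aged and adult sections did not overlap in the chosen spots and overlapped in both other classes. The difference was 0.89 ± 0.11 from the layer-panel spots (adjusted p = 0.000657, lost without adult section 1 at 0.82) and 0.90 ± 0.09 from the other spots (adjusted p = 0.000207, both edgeR). Fos, Junb and Nr4a1 also rose more than in the layer-panel spots, and each of these 3 calls was lost without adult section 1 (0.74, 0.50 and 0.44) or aged section 2 (1.19, 0.59 and 0.65). Of the 11 immediate early genes those 3 were the only ones called against the layer-panel spots (median difference 0.50), and none was called against the other spots (0.06). For Egr1 the differences were 0.10 ± 0.14 and −0.22 ± 0.13 and were not called.

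Vip measured 39.7 and 45.4 CPM in adult and 30.7 and 40.5 CPM in aged layer-panel spots, against the rise of the chosen spots given above. The difference was 1.57 ± 0.24 (adjusted p = 0.00294, edgeR), and 0.90 ± 0.20 against the other spots (adjusted p = 0.0421). Sstr2 differed by 1.02 ± 0.24 and 1.39 ± 0.21 (adjusted p = 0.0316 and 0.00418, edgeR). The Vip difference from the layer-panel spots was called in every fit that left out a section, and its difference from the other spots was lost without either adult section or aged section 2. The Sstr2 difference from the layer-panel spots was lost when any section but aged section 1 was left out (0.80 to 1.20), and that from the other spots without adult section 1 (1.28). Within the largest patch the Sstr2 (0.89) and Nr4a1 (0.62) differences from the layer-panel spots and the Vip difference from the other spots (0.72) were not called. Cpne6, a calcium-dependent protein of dendritic spines, measured 417 and 451 CPM in adult and 480 and 497 in aged chosen spots, where it was not called, and 194 and 209 against 147 and 131 CPM in the layer-panel spots (0.72 ± 0.08, adjusted p = 0.000656, edgeR).

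Rasgrp2, a Rap1 exchange factor, measured 39.5 and 42.1 CPM in adult and 21.9 and 23.2 CPM in aged chosen spots, and 60.2 and 56.7 against 68.8 and 71.4 CPM in the layer-panel spots. In the other spots it measured 51.0 and 49.7 against 49.1 and 57.1 CPM. It changed downward against both classes, by −1.12 ± 0.14 and −0.93 ± 0.13 (adjusted p = 0.000657 and 0.00263, edgeR). Baiap3, which acts in dense-core vesicle release, measured 66.5 and 68.2 CPM against 42.6 and 37.6 CPM in the chosen spots, and 50.7 and 83.3 against 110 and 111 CPM in the layer-panel spots (−1.49 ± 0.19, adjusted p = 0.000657, edgeR). Igfn1 measured 28.1 and 29.8 CPM against 6.56 and 8 CPM in the chosen spots and 28.1 and 23.0 against 20.01 and 22.1 CPM in the other spots (−1.70 ± 0.25, adjusted p = 0.00396, edgeR).

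Part of the reactive glial and immune genes had a lower change in the chosen spots than elsewhere. Against the layer-panel spots, where 0.781% of all genes were called lower in change, 4 of 8 reactive astrocyte genes, 2 of 9 reactive microglial genes and 2 of 8 complement and MHC class I genes were. Against the other spots (0.46% of all genes) the counts were 4, 6 and 6. The lists overlap, since C4b and H2-D1 count among both the astrocyte and the complement genes, and B2m among both the microglial and the complement genes. Gfap, the intermediate filament of astrocytes, measured 148 and 69.3 CPM in adult and 109 and 123 CPM in aged chosen spots, whereas the layer-panel spots went from 147 and 151 to 381 and 349 CPM (−1.17 ± 0.23, adjusted p = 0.0147, edgeR). C4b went from 31.9 and 32.3 to 284 and 232 CPM in the other spots, a difference of −1.69 ± 0.30 (adjusted p = 0.0106, edgeR). These counts rest on adult section 1, whose chosen spots held the higher adult level of both genes. Without it 0 genes of the 3 lists were called against either class by edgeR, with medians of −0.66 and −0.62 for the reactive astrocyte list in place of −1.15 and −1.02. Within the largest patch neither difference of C4b (−0.69 and −0.83) was called.

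**Figure D5:**
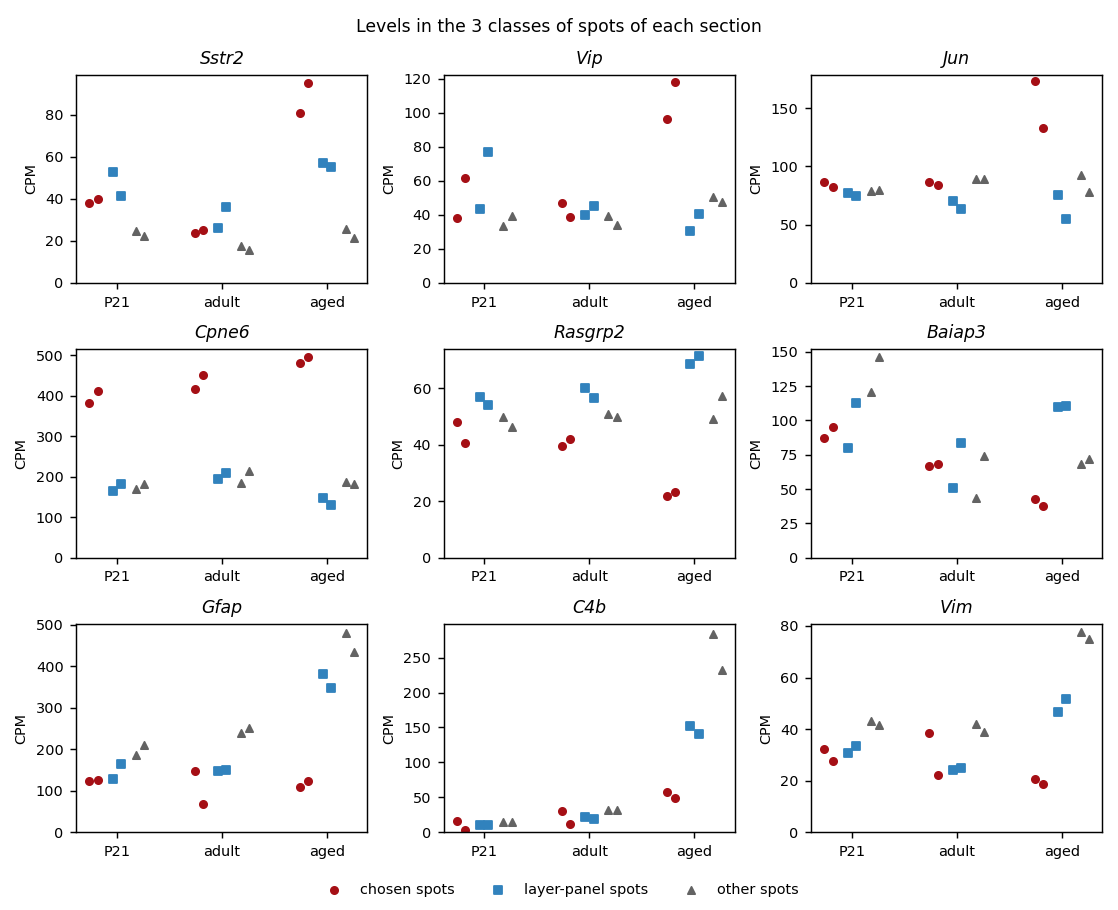
TMM-scaled CPM of 9 genes in the chosen, layer-panel and other spots of each section, 1 point per section, with axes that start at 0. Jun reaches 173 and 133 CPM in the aged chosen spots and stays at 92.6 CPM or less in both other classes, and Rasgrp2 is lowest in the aged chosen spots at 21.9 and 23.2 CPM.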

How the data were processed

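Gene expression was measured in 6 coronal sections, 2 per age, grouped by their labels. As deposited, the values are whole-number counts (UMIs) of 19465 genes in each spot, without normalization, made by the authors with Space Ranger (2.0.0 for P21 and adult, 3.1.1 for aged, per the file headers) and the mm10 reference. The submitters' processing notes name Space Ranger 2.1.0 and Seurat 5.1.0. The deposited Moran's I score per gene, made by the authors with Space Ranger, was tabulated and supports no result.

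Spots with at least 500 UMIs were kept. The members and the gene lists were chosen with earlier results of these data known. UMIs of the chosen spots were summed per section, since sections are the replicates, and tested with edgeR 4.0.16 (R 4.3.3, TMM factors, glmQLFit and glmQLFTest) over all 6 sections with age as the term. Genes were tested if kept by filterByExpr and detected in over 10% of the chosen spots at either age compared, and the 4 score genes were left out. Adjusted p are Benjamini-Hochberg values over all genes tested. The SE of a log2 fold change is its size divided by the square root of F. Differences between classes of spots were fitted on 3 sums per section with section as a block, and the genes of the panels that set the layer-panel spots were left out. The script was tested on simulated data.

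Named genes are the score genes, the 15 leading genes, the 8 largest rises and falls at 20 CPM or more without overlap between ages, up to 4 called genes per list at 5 CPM or more, and the 5 smallest p of each comparison between classes. Panel and patch genes outside it (Slc17a7, Slc30a3, Rorb, Fezf2, Cux1, Esr1, Wfs1, Crabp1, Gria1, Gria3, Grm5, Bcl11a, Nr2f2, Trps1, Tubb2b and Pdyn) were named after their values were seen. Coordinates of 396 of 396 genes were found in GENCODE vM21. Alternatives were other normalization, DESeq2 1.42.0, glmTreat, gene filters, shares of 4% and 8% of spots, spots with 2 chosen neighbours, each section left out and a replicate block. A further 2 settings, the largest patch and sums thinned to the lowest section, were added after the data were seen. Replicates of an age correlated at r = 0.987, 0.980 and 0.991 over 11569 genes. Same-numbered sections of different ages deviated together at r between −0.0859 and 0.0769. With 2 sections per age, differently numbered sections give the same values with the sign turned, so these values cannot decide whether the numbers pair sections. Values of some genes are not reported here. Images were not analysed here.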

Additional observations from a re-analysis of the deposited data

Results flagged for a closer look

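These results are set apart because an age change in the chosen spots differed from that in another class of the same sections, by the class-by-age term of edgeR. The counts of such genes were 8 against the other spots in P21 vs. adult, 150 against the layer-panel spots in aged vs. adult and 82 against the other spots in aged vs. adult.

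In P21 vs. adult against the other spots, the smallest p belonged to Rcn1 (log2 difference −1.17), Kctd13 (0.60), Mpped1 (0.67), Hap1 (−0.62) and Man1a (−0.80). Kctd13, an adaptor of a ubiquitin ligase, measured 122 and 127 CPM at P21 and 145 and 155 in adult chosen spots, and 111 and 100 against 195 and 192 CPM in the other spots. Hap1, the huntingtin-associated protein, measured 413 and 462 CPM against 400 and 456 in the chosen spots and 349 and 390 against 201 and 269.5 in the other spots. Of these 5, none was called without P21 section 1 and none without P21 section 2.

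In aged vs. adult against the layer-panel spots they were Pmch (−6.73), Cpne6 (0.72), Jun (0.89), Rasgrp2 (−1.12) and Baiap3 (−1.49). Against the other spots they were Jun (0.90), Cd74 (−3.81), Pmch (−5.96), Vim (−1.54) and Rasgrp2 (−0.93). Pmch rested on aged section 1, whose layer-panel and other spots held 426 and 552 CPM against 1.69 and 4.67 CPM in aged section 2, and without aged section 1 its differences were −1.72 and −1.97 and were not called. Cd74 was at 62.5 CPM in the chosen spots of adult section 1 and 16.4 CPM in those of adult section 2. Vim, an intermediate filament of reactive astrocytes and other cells, measured 41.9 and 38.9 CPM in adult and 77.8 and 74.8 CPM in aged sections in the other spots, and 38.4 and 22.4 against 20.8 and 18.9 CPM in the chosen spots. Its difference without adult section 1 was −1.14 and was not called.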

How the results depend on the processing

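The counts of genes called were 329 for P21 vs. adult and 1359 for aged vs. adult within the chosen spots, and 0 and 8 (P21) and 150 and 82 (aged) against the layer-panel and the other spots. With DESeq2 they were 192, 903, 2, 14, 156 and 83, and with glmTreat, which tests against the fold itself, 42, 180, 0, 0, 6 and 4. Leaving out 1 section at a time gave 96 to 397, 1064 to 1479, 0 to 4, 0 to 15, 8 to 311 and 9 to 160. Such a fit leaves 1 section in an age, which is assumed to vary like the others. The lowest P21 counts were without P21 section 1 (96) and without P21 section 2 (197), and the counts against the other spots were then 1 and 0. Against the layer-panel spots the aged count was 8 without adult section 1, 311 without adult section 2, 259 without aged section 1 and 37 without aged section 2. Within the chosen spots 73 of the P21 calls and 595 of the aged calls were kept in every such fit. Taking the top 4% of spots gave 13 against the other spots at P21, and asking for 2 chosen neighbours gave 17. Within the largest patch, a setting chosen after seeing the data, the aged counts were 54 and 25, and of the values of named genes 143 kept their call, 58 lost it and 1 turned. With the replicate block the counts of the chosen spots were 323 and 1332, and whether the numbers pair the sections could not be decided. The share of higher calls at P21, 69.3%, was 90.5% with glmTreat and 52.8% without adult section 2.

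Among the genes tested for a change of sign, C1ql2, Prox1, Spp1, Igf2, Hcrt and Avp turned. The aged changes of C1ql2, Prox1, Spp1 and Igf2 ran from −1.86 to 0.74, −1.06 to 0.019, −2.52 to 0.93 and −2.53 to 0.69 when 1 section was left out, and that of Spp1 against the other spots from −3.25 to 0.17, each positive without adult section 1. Within the largest patch the aged change of Spp1 was 0.05. Hcrt and Avp differed from the layer-panel spots by −6.29 to 0.77 and −5.63 to 0.29, and from the other spots by −4.79 to 2.25 and −4.28 to 0.40, each positive without aged section 1. The cause was not tested.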
